A study of Arabidopsis thaliana with 18 samples.

Results

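The 3 CCS52 activators and the 4 A2 cyclins of Arabidopsis thaliana were followed in root RNA from 6 genotypes. The 7 genes were taken by locus from a table of 25537 genes: CCS52A1 (AT4G22910), CCS52A2 (AT4G11920), CCS52B (AT5G13840), CYCA2;1 (AT5G25380), CYCA2;2 (AT5G11300), CYCA2;3 (AT1G15570) and CYCA2;4 (AT1G80370). All 7 passed the filter on low counts and were among the 19981 genes tested.

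In endoreduplication a nucleus copies its DNA again without an intervening mitosis, and in Arabidopsis roots this begins as cells leave the meristem and elongate. CCS52 proteins switch on the anaphase-promoting complex or cyclosome (APC/C), a ubiquitin ligase that marks mitotic cyclins for destruction, whereas A2 cyclins act with B-type CDKs to keep cells dividing and hold back the endocycle. CCS52A1 is known to promote endocycle onset at the border of the root meristem and to destabilise CYCA2;3, CCS52A2 is needed in the root stem cell niche, and CCS52B is transcribed around mitosis.

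The study asked how roots mutated in RAB8D, the gene for plastid elongation factor EF-Tu, engage the DNA damage response. Poly(A) RNA was sequenced from whole roots of untreated seedlings aged 4 days, grown in cycles of 16 h light and 8 h dark, with 3 libraries per genotype and 18 in all. The groups were wild type Col (WT), the single mutant rab8d-2, and lines in which rab8d-2 was combined with atm-2, with sog1-1, with nac044-1 or with nac085-1. Every double mutant carries rab8d-2 as well, so each was compared with rab8d-2 for the second mutation and with WT for both together; ATM is the kinase and SOG1 the transcription factor of the plant DNA damage response, and NAC044 and NAC085 are SOG1-related factors. Each mutation was represented by a single allele, and lines with the second mutation alone were not analysed here. The labels call the libraries biological replicates without saying how separately the seedlings were grown, so the p-values measure the spread between these libraries.

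Totals ran from 20103634 to 20471203 estimated counts per library. Levels of single genes are given as CPM, the count scaled to a common library size with TMM factors. RAB8D stood at 90.2 ± 2.62 CPM (SD, n = 3) in WT, at 11.4 ± 0.419 in rab8d-2 and at means of 13.2 to 17.7 in the double mutants. ATM fell from 53.7 ± 3.02 CPM in rab8d-2 to 5.51 ± 0.256 in atm-2 rab8d-2. NAC085 fell from 1.73 ± 0.402 CPM in rab8d-2 to 0.915 ± 0.443 in nac085-1 rab8d-2, but it stood at 0.635 ± 0.159 in WT and 1.07 ± 0.265 in sog1-1 rab8d-2, so this low level gave no firm check of the nac085-1 label. NAC044 RNA was not lower under its label: it rose from 19.4 ± 0.588 CPM in rab8d-2 to 160 ± 3.48 in the libraries labelled nac044-1 rab8d-2. RNA level alone does not settle whether that label is right. SOG1 RNA gave no check of the sog1-1 label, with 29.4 ± 1.40 CPM in that double mutant against 25 ± 1.44 in rab8d-2. For the 3 rab8d-2 libraries the genotype entry reads as wild type, against titles and descriptions that name rab8d-2, and the titles were followed.

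The 7 genes lie on 3 chromosomes of the TAIR10.1 reference: CYCA2;3 at chr1:5361865-5365559 and CYCA2;4 at chr1:30213705-30217102, both on the plus strand; CCS52A1 at chr4:12012408-12016012 (plus) and CCS52A2 at chr4:7160243-7163427 (minus); and CYCA2;1 at chr5:8814517-8817887 (plus), CYCA2;2 at chr5:3601513-3605350 (minus) and CCS52B at chr5:4468508-4471466 (minus). CYCA2;3 shares 48 exon bases with IAA5 on the opposite strand, an auxin-response gene with 6 to 37 counts per library, and CCS52B shares 376 exon bases with an opposite-strand non-coding RNA that was not analysed here. The sources used here do not say whether counting used strand, and reads from these shared bases cannot be assigned with certainty.

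The stretches of 250 bases just upstream of the annotated starts of CYCA2;2, CYCA2;3 and CYCA2;4 are shown because these cyclins moved differently between the same libraries: CYCA2;2 was lower in rab8d-2 than in WT while CYCA2;3 and CYCA2;4 were higher. CYCA2;1 is shown as the family member with the lowest RNA level. The sequences are from RefSeq TAIR10.1, 5′ to 3′ on the strand of the gene, and capitals mark the motif matches described after them.
CYCA2;1, chr5:8814267-8814516, plus strand: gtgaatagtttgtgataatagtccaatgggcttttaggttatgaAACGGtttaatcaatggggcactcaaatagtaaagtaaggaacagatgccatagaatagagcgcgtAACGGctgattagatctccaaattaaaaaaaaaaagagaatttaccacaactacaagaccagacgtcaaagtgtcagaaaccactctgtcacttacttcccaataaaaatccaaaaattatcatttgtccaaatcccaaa
CYCA2;2, chr5:3605351-3605600, minus strand: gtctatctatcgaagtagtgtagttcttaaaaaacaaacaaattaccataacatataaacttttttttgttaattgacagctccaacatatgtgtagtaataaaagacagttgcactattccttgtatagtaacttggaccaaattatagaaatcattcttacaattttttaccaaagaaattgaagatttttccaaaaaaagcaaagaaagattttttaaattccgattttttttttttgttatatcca
CYCA2;3, chr1:5361615-5361864, plus strand: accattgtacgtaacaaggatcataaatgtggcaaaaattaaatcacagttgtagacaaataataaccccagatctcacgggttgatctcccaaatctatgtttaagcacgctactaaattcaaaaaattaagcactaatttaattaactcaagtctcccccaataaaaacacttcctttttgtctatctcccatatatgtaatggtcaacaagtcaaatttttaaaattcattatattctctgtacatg
CYCA2;4, chr1:30213455-30213704, plus strand: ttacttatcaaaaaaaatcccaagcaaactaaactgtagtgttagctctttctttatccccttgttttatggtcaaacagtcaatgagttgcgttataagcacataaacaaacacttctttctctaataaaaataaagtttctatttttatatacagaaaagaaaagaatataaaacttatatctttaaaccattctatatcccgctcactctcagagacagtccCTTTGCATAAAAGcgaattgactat
Both strands of the upstream windows of all 7 genes were searched for 3 motifs. The SOG1 motif CTTNNNNNNNAAG occurred in 1 of the 7 windows, that of CYCA2;4, from 25 to 13 bases upstream, and in 9.7% of the 27443 windows of all genes. The core of the mitosis-specific activator (MSA) element bound by MYB3R factors, AACGG, occurred in 1 of the 7, that of CYCA2;1, from 206 to 202 and from 140 to 136 bases upstream, and in 20.6% of all windows. The E2F site (TTTCCCGC, TTTCGCGC, TTTGCCGC or TTTGGCGC) occurred in 0 of the 7 and in 1.4% of all windows. The motifs did not overlap, and a match or its lack describes only the letters of these windows.

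Per transcript length, CCS52B was the most abundant member on average over the 18 libraries and CYCA2;1 the least. Mean levels over the 18 libraries, in TPM, which scales each gene's reads by transcript length and library, were 21.3 for CCS52B, 16.9 for CCS52A1 and 9.77 for CCS52A2. Among the cyclins they were 14.2 TPM for CYCA2;4, 11.4 for CYCA2;3, 7.12 for CYCA2;2 and 1.63 for CYCA2;1. CCS52B stood above 53.6% of the tested genes by this measure and CYCA2;1 above 8.34%. In atm-2 rab8d-2, CCS52A1 stood above CCS52B, at means of 21.6 and 17.3 TPM. Member counts ran from 21 for CYCA2;1 to 641 for CCS52A1 per library. The coefficient of variation between replicates, averaged over genotypes, was between 2.33% (CCS52A2) and 13.7% (CYCA2;1), against 6.25% and 16.2% from counting alone.

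**Figure D1:**
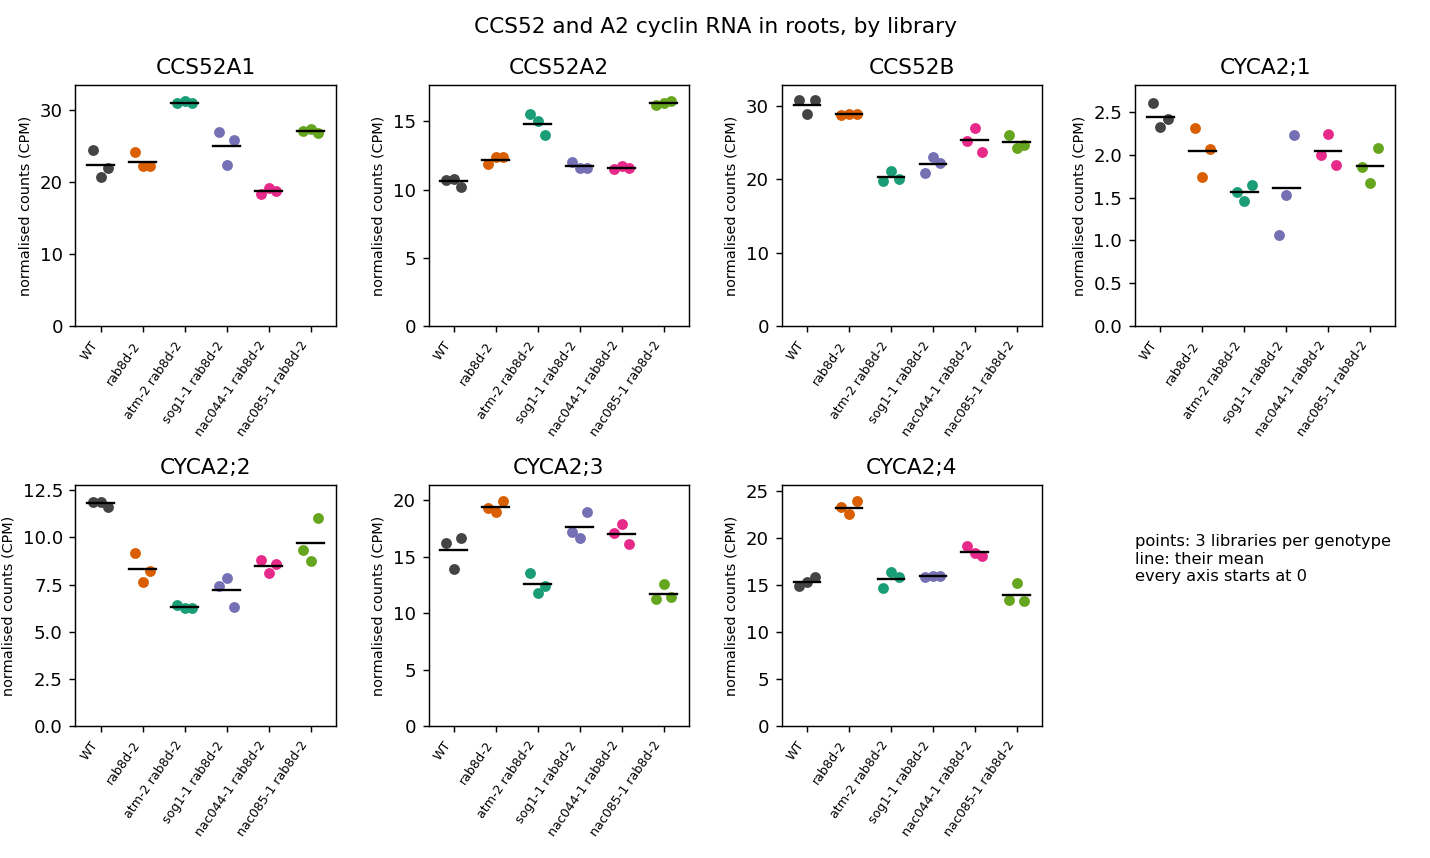
Normalised counts (CPM, axes from 0) of the 7 genes in each library, grouped by genotype, with the mean of 3 as a line. CYCA2;4 was highest in rab8d-2 (22.5 to 23.9 CPM), CYCA2;2 was highest in WT (11.6 to 11.9), and CCS52A1 was highest in atm-2 rab8d-2 (30.9 to 31.2).

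A member was called where its adjusted p (edgeR quasi-likelihood test, Benjamini-Hochberg over all 19981 genes) was under 0.05. In rab8d-2 against WT, 4 of 7 members were called, 3 higher and 1 lower, where 64.5% of all genes tested were called, 31.7% higher and 32.9% lower. Being called was thus the common state of a gene in these data, and the sizes and directions below carry the description. The members' median log2 fold change was 0.03, against 0.00 over all genes.

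Against rab8d-2, 6 of 7 members were called in atm-2 rab8d-2, 2 higher and 4 lower (background 61.6%, 31.7% higher and 29.9% lower). In sog1-1 rab8d-2 it was 2 of 7, both lower (54.6%, 28.7% higher and 26.0% lower), and in nac085-1 rab8d-2 it was 6 of 7, 3 higher and 3 lower (63.5%, 31.8% higher and 31.7% lower). In the libraries labelled nac044-1 rab8d-2, 4 of 7 were lower and none higher (42.9%, 24.3% higher and 18.6% lower). With upper quartile scaling the genes called in that last comparison split into 3827 higher and 4766 lower, in place of 4859 and 3720, and the members' split did not change. The members' median log2 fold changes were -0.40, -0.21, -0.13 and -0.18 in the order atm-2, sog1-1, nac085-1 and nac044-1, against medians between -0.01 and 0.02 over all genes. These 4 comparisons share the rab8d-2 libraries, and the comparisons with WT share the WT libraries.

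Against WT, 6 of 7 members were called in atm-2 rab8d-2, 2 higher and 4 lower (background 68.6%, 35.1% higher and 33.5% lower). In sog1-1 rab8d-2 it was 5 of 7, 2 higher and 3 lower (58.1%, 28.8% higher and 29.2% lower), and for the libraries labelled nac044-1 rab8d-2 it was 4 of 7, 1 higher and 3 lower (58.1%, 29.3% higher and 28.8% lower). In nac085-1 rab8d-2 it was 5 of 7, 2 higher and 3 lower (64.9%, 32.5% higher and 32.4% lower). The sog1-1 rab8d-2 counts depend on single libraries. Against rab8d-2 the count was 4 rather than 2 without sog1-1 rab8d-2 replicate 2 or without its replicate 3, and against WT it was 3 rather than 5 without WT replicate 2, without sog1-1 rab8d-2 replicate 1 or without its replicate 3; the genes involved are named below.

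**Figure D2:**
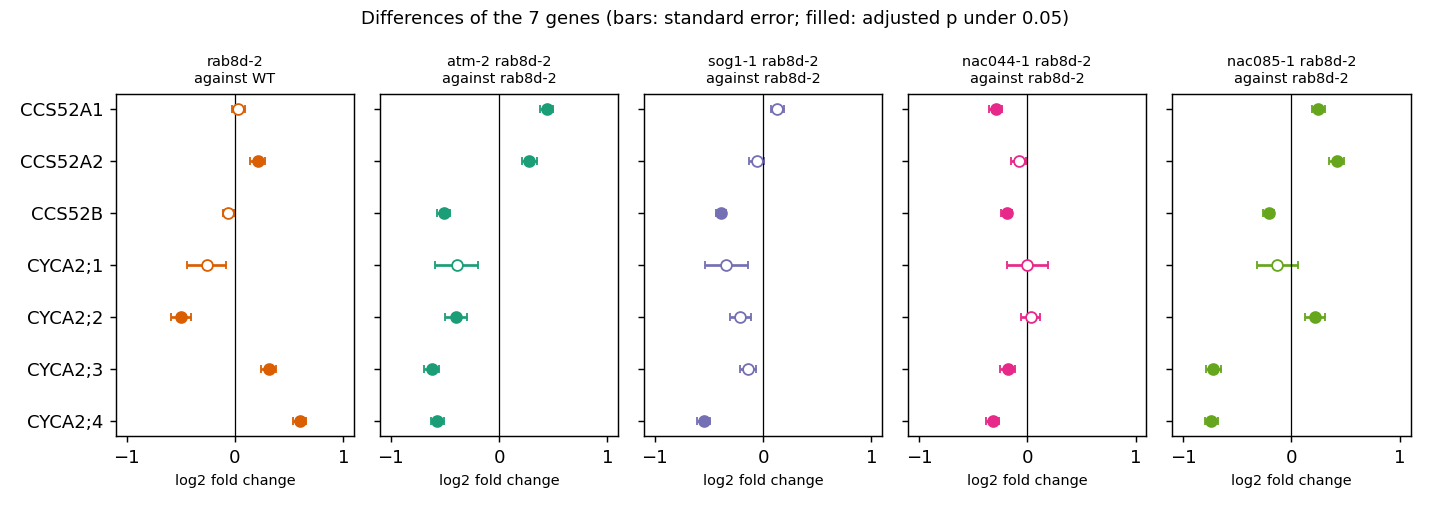
Log2 fold changes of the 7 genes for rab8d-2 set against WT and for each double mutant set against rab8d-2, with 3 libraries per group. Bars give the standard error from the fit over all 18 libraries, and filled points mark adjusted p under 0.05. CYCA2;4 changed by 0.60 in rab8d-2 against WT and by -0.57, -0.55, -0.32 and -0.74 in the 4 double mutants against rab8d-2.

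CCS52A1, the activator linked to endocycle onset, did not pass the test between rab8d-2 and WT but was higher in 2 of the double mutants. WT libraries held 24.4, 20.7 and 22.0 CPM and rab8d-2 libraries 24.1, 22.2 and 22.2, so the groups overlapped (log2 fold change 0.03 ± 0.06 SE, adjusted p = 0.694). In atm-2 rab8d-2 the values were 31.0, 31.2 and 30.9, and in nac085-1 rab8d-2 they were 27.1, 27.4 and 26.8. All 6 of these libraries lay above every WT and rab8d-2 library.

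Against rab8d-2, CCS52A1 rose by 0.44 ± 0.06 on the log2 scale in atm-2 rab8d-2 (adjusted p = 4.96e-09) and by 0.25 ± 0.06 in nac085-1 rab8d-2 (adjusted p = 0.000339). The libraries labelled nac044-1 rab8d-2, at 18.3, 19.1 and 18.7 CPM, lay below all others, and CCS52A1 fell there by 0.29 ± 0.06 against rab8d-2 (adjusted p = 0.000237). CCS52A1 thus stood in opposite directions from rab8d-2 in the groups labelled as mutants of the related factors NAC085 and NAC044. The caution is that NAC044 RNA was higher, not lower, under its label. Between these groups the difference was 0.54 ± 0.06 (nac085-1 against nac044-1, adjusted p = 2.73e-10). The sog1-1 rab8d-2 libraries were spread, at 26.9, 22.3 and 25.8 CPM, and reached into the range of the rab8d-2 and WT libraries. The difference from rab8d-2 was 0.13 ± 0.06 (adjusted p = 0.0657; 0.00495 without sog1-1 rab8d-2 replicate 2 and 0.033 without rab8d-2 replicate 1). The call against WT (0.16 ± 0.06, adjusted p = 0.0239) was lost without WT replicate 2 or 3 or sog1-1 rab8d-2 replicate 1 or 3 (adjusted p from 0.0633 to 0.189), and with DESeq2 (0.072).

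CCS52A2, the activator needed in the stem cell niche, was higher in rab8d-2 than in WT and higher again in atm-2 rab8d-2 and nac085-1 rab8d-2. WT libraries held 10.7, 10.8 and 10.2 CPM and rab8d-2 libraries 11.9, 12.4 and 12.4, without overlap (0.21 ± 0.07, adjusted p = 0.0109; 0.0573 with DESeq2). Values were 15.5, 15 and 14 CPM in atm-2 rab8d-2 and 16.2, 16.3 and 16.5 in nac085-1 rab8d-2, all above the rab8d-2 libraries. The rises from rab8d-2 were 0.28 ± 0.07 (adjusted p = 0.000342) and 0.42 ± 0.07 (adjusted p = 3.11e-07).

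The other double mutants stayed near rab8d-2 in CCS52A2. The sog1-1 rab8d-2 libraries held 12.0, 11.6 and 11.6 CPM (-0.06 ± 0.07 against rab8d-2, adjusted p = 0.498) and those labelled nac044-1 rab8d-2 held 11.5, 11.7 and 11.6 (-0.08 ± 0.07, adjusted p = 0.44). All 6 lay above the WT libraries, but neither difference from WT passed the test (adjusted p = 0.0933 and 0.128), except under upper quartile scaling for sog1-1 rab8d-2 (adjusted p = 0.046).

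CCS52B, the activator transcribed around mitosis, was lower than rab8d-2 in every double mutant, opposite to CCS52A1 and CCS52A2 in atm-2 and nac085-1 rab8d-2 and in the same direction as CCS52A1 in the libraries labelled nac044-1 rab8d-2. WT libraries held 30.7, 28.8 and 30.7 CPM and rab8d-2 libraries 28.7, 28.9 and 28.9, which overlapped (-0.06 ± 0.05, adjusted p = 0.316). Values were 19.8, 21.1 and 20 CPM in atm-2 rab8d-2 and 20.9, 23.0 and 22.2 in sog1-1 rab8d-2. The libraries labelled nac044-1 rab8d-2 held 25.2, 26.9 and 23.7, and nac085-1 rab8d-2 libraries held 26.0, 24.3 and 24.7.

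All 12 double-mutant libraries lay below all WT and rab8d-2 libraries in CCS52B. Against rab8d-2, CCS52B fell by 0.51 ± 0.06 in atm-2 rab8d-2 (adjusted p = 3.83e-11) and by 0.39 ± 0.05 in sog1-1 rab8d-2 (adjusted p = 5.32e-08). The falls were smaller in nac085-1 rab8d-2 (0.21 ± 0.05, adjusted p = 0.000815) and in the libraries labelled nac044-1 rab8d-2 (0.19 ± 0.05, adjusted p = 0.00286). The difference between these pairs was itself called: CCS52B was higher in nac085-1 rab8d-2 than in atm-2 rab8d-2 (0.30 ± 0.06, adjusted p = 1.65e-05) and than in sog1-1 rab8d-2 (0.18 ± 0.06, adjusted p = 0.00531). AT5G13850, a gene that overlaps CCS52B on the opposite strand with no shared exon bases, was higher in rab8d-2 than in WT (0.31 ± 0.04, adjusted p = 2.98e-10), where CCS52B was not called. Against rab8d-2, AT5G13850 changed by -0.02 in atm-2, -0.07 in sog1-1, -0.09 in nac044-1 and -0.14 in nac085-1 rab8d-2. It was called lower only in nac044-1 and nac085-1 rab8d-2.

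The atm-2 rab8d-2 and sog1-1 rab8d-2 libraries also differed from the other groups in the dawn-phased clock genes CCA1 and LHY, a pair added after the values had been seen. Their summed level was 26.1 to 28.2 CPM in atm-2 rab8d-2 and 32.7 to 33.3 in sog1-1 rab8d-2, against 0.967 to 2.58 in the other 12 libraries. CCS52B had its lowest values in the same 6 libraries, and the part of sampling time in any member's result was not tested.

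CYCA2;4, the A2 cyclin with the most RNA, showed the widest rise in rab8d-2 among the members and was lower again in every double mutant. WT libraries held 14.9, 15.3 and 15.8 CPM and rab8d-2 libraries 23.3, 22.5 and 23.9. The groups were far apart relative to their spread, and the rise was 0.60 ± 0.06, or 1.52-fold (adjusted p = 5.19e-12). Values were 14.7, 16.4 and 15.8 CPM in atm-2 rab8d-2, 15.8, 15.9 and 15.9 in sog1-1 rab8d-2, and 13.4, 15.2 and 13.3 in nac085-1 rab8d-2. These 3 groups lay near the WT level, and the libraries labelled nac044-1 rab8d-2, at 19.1, 18.4 and 18.1, lay between WT and rab8d-2.

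Against rab8d-2, CYCA2;4 fell by 0.57 ± 0.06 in atm-2 rab8d-2 (adjusted p = 1.48e-11), by 0.55 ± 0.06 in sog1-1 rab8d-2 (adjusted p = 1.11e-10) and by 0.74 ± 0.06 in nac085-1 rab8d-2 (adjusted p = 1.29e-14). The fall was 0.32 ± 0.06 for the libraries labelled nac044-1 rab8d-2 (adjusted p = 9.23e-06), and there it was still above WT (0.28 ± 0.06, adjusted p = 0.000253). The remaining differences from WT were 0.03 ± 0.07 in atm-2 rab8d-2 (adjusted p = 0.712), 0.05 ± 0.07 in sog1-1 rab8d-2 (adjusted p = 0.514) and -0.14 ± 0.07 in nac085-1 rab8d-2 (adjusted p = 0.0745). The last of these passed the test without nac085-1 rab8d-2 replicate 2 (-0.20 ± 0.07, adjusted p = 0.0159).

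CYCA2;3, the A2 cyclin best known as a brake on endocycle onset and as a target of CCS52A1, was also higher in rab8d-2. WT libraries held 16.2, 13.9 and 16.6 CPM and rab8d-2 libraries 19.3, 18.9 and 19.9, without overlap (0.31 ± 0.07, adjusted p = 0.000106). Values were 13.5, 11.8 and 12.4 CPM in atm-2 rab8d-2 and 11.2, 12.6 and 11.4 in nac085-1 rab8d-2, all below every WT library. Against rab8d-2 the falls were 0.62 ± 0.07 (adjusted p = 1.53e-10) and 0.72 ± 0.07 (adjusted p = 3.64e-12), and against WT they were 0.31 ± 0.08 (adjusted p = 0.000297) and 0.41 ± 0.08 (adjusted p = 7.45e-06).

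Here sog1-1 rab8d-2 differed from atm-2 rab8d-2. Its libraries held 17.2, 16.6 and 18.9 CPM of CYCA2;3, above all atm-2 rab8d-2 libraries (0.48 ± 0.07, adjusted p = 1.96e-07). They lay just below the rab8d-2 libraries, a difference that did not pass the test (-0.14 ± 0.07, adjusted p = 0.0716; 0.025 without sog1-1 rab8d-2 replicate 3 and 0.0352 under upper quartile scaling). The call against WT (0.17 ± 0.07, adjusted p = 0.0355) was lost without WT replicate 2 (adjusted p = 0.267) or sog1-1 rab8d-2 replicate 3 (0.211), and with DESeq2 (0.11). The libraries labelled nac044-1 rab8d-2 held 17.1, 17.9 and 16.1 CPM, lower than rab8d-2 by 0.18 ± 0.07 (adjusted p = 0.0233); that call was lost without rab8d-2 replicate 3 (0.0842) or replicate 3 of the labelled group (0.121), and with DESeq2 (0.0891). IAA5, which overlaps the end of CYCA2;3, stood at 0.368 CPM in WT and 1.28 in rab8d-2 (1.79 ± 0.32, adjusted p = 3.3e-06). It stood at 1.12 CPM in atm-2 and 1.64 in nac085-1 rab8d-2, the groups with the lowest CYCA2;3. In sog1-1 and nac044-1 rab8d-2 it stood at 0.507 and 0.612. The part of IAA5 in the CYCA2;3 values was not tested.

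CYCA2;2 moved against CYCA2;3 and CYCA2;4: it was lower in rab8d-2 than in WT. WT libraries held 11.9, 11.9 and 11.6 CPM and rab8d-2 libraries 9.15, 7.64 and 8.20, well apart (-0.50 ± 0.09, adjusted p = 2.64e-06). All 15 mutant libraries lay below the WT libraries. Values were 6.42, 6.28 and 6.26 CPM in atm-2 rab8d-2, the lowest group, where CYCA2;2 fell by a further 0.40 ± 0.10 from rab8d-2 (adjusted p = 0.000615) and stood at 53.5% of WT.

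The remaining double mutants lay on both sides of rab8d-2 in CYCA2;2. The sog1-1 rab8d-2 libraries held 7.45, 7.84 and 6.29 CPM (-0.21 ± 0.10, adjusted p = 0.0645; 0.034 without sog1-1 rab8d-2 replicate 2, 0.0341 without rab8d-2 replicate 2 and 0.0382 under upper quartile scaling), and those labelled nac044-1 rab8d-2 held 8.79, 8.10 and 8.58 (0.03 ± 0.09, adjusted p = 0.844). The nac085-1 rab8d-2 libraries held 9.32, 8.75 and 11 CPM and overlapped rab8d-2. The rise of 0.22 ± 0.09 (adjusted p = 0.0331) was lost without nac085-1 rab8d-2 replicate 3 (0.316), without rab8d-2 replicate 2 (0.169) or 3 (0.081), and with DESeq2 (0.106). CYCA2;2 was higher in nac085-1 rab8d-2 than in atm-2 rab8d-2 without overlap (0.62 ± 0.10, adjusted p = 6.35e-07), although CYCA2;3 did not pass the test between these groups (-0.10 ± 0.08, adjusted p = 0.314).

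CYCA2;1 was the member with the fewest counts, from 21 to 52 per library, and none of its differences from rab8d-2 passed the test. WT libraries held 2.60, 2.32 and 2.41 CPM and rab8d-2 libraries 2.31, 1.74 and 2.06, just below WT (-0.26 ± 0.18, adjusted p = 0.209). Values were 1.56, 1.46 and 1.65 CPM in atm-2 rab8d-2, 1.06, 1.53 and 2.23 in sog1-1 rab8d-2, 1.99, 2.24 and 1.88 among the libraries labelled nac044-1 rab8d-2, and 1.85, 1.67 and 2.08 in nac085-1 rab8d-2. Every mutant library lay below every WT library. Against WT, CYCA2;1 fell by 0.65 ± 0.19 in atm-2 rab8d-2 (adjusted p = 0.00297) and by 0.60 ± 0.19 in sog1-1 rab8d-2 (adjusted p = 0.00711).

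Single libraries decide several of the CYCA2;1 values at these counts. The sog1-1 rab8d-2 call against WT was lost without that group's replicate 1 (-0.38 ± 0.20, adjusted p = 0.11), and its difference from rab8d-2 (-0.34 ± 0.20, adjusted p = 0.148) became -0.65 ± 0.22 (adjusted p = 0.0128) without its replicate 3. The nac085-1 rab8d-2 difference from WT (-0.39 ± 0.19, adjusted p = 0.0643) passed without sog1-1 rab8d-2 replicate 3, which changes the shared spread (adjusted p = 0.048).

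CYCA2;1 has 4 annotated transcripts of 1332 to 1931 bases, and the mean transcript length implied by its counts and FPKM was 1694 to 1797 bases in WT and 1848 to 1853 in rab8d-2. The ranges were 1811 to 1870 bases in atm-2 rab8d-2, 1622 to 1849 in sog1-1 rab8d-2, 1717 to 1870 among the libraries labelled nac044-1 rab8d-2 and 1679 to 1864 in nac085-1 rab8d-2. WT and rab8d-2 did not overlap in this length, atm-2 rab8d-2 lay above WT, and the other double mutants reached into both ranges; with so few counts the assignment of reads to isoforms is uncertain.

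Over all 15 pairs of genotypes, 68 of the 105 contrasts of the 7 members were called, where 42.9% to 68.6% of all genes were called per pair. Between double mutants, 4 of 7 members were called in nac085-1 against nac044-1 (background 58.5%), 5 in nac085-1 against sog1-1 (56.5%) and 4 in nac085-1 against atm-2 (48.3%). It was 4 in nac044-1 against sog1-1 (52.2%), 6 in nac044-1 against atm-2 (65.8%) and 3 in sog1-1 against atm-2 (57.8%). CCS52A1 and CCS52B were called in 12 pairs each, CYCA2;2, CYCA2;3 and CYCA2;4 in 11 each, CCS52A2 in 9 and CYCA2;1 in 2. When each member's genotypes were put in order of mean CPM, 9 of the 35 neighbouring pairs were called, and these are the breaks named below. The breaks in CCS52A1 lay between atm-2 rab8d-2 and nac085-1 rab8d-2 (adjusted p = 0.00339) and between WT and the libraries labelled nac044-1 rab8d-2 at the bottom (adjusted p = 0.000657). In CCS52A2 the break lay between atm-2 rab8d-2 and rab8d-2 below it. At the top, nac085-1 rab8d-2 and atm-2 rab8d-2 were not called apart (adjusted p = 0.0671), although all nac085-1 rab8d-2 libraries lay above those of atm-2 rab8d-2.

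In CCS52B the order ran WT, rab8d-2, nac044-1 rab8d-2, nac085-1 rab8d-2, sog1-1 rab8d-2 and atm-2 rab8d-2, with breaks after rab8d-2 and after nac085-1 rab8d-2. In CYCA2;4, rab8d-2 stood above the libraries labelled nac044-1 rab8d-2, and those above sog1-1 rab8d-2 (adjusted p = 0.00289), while sog1-1 rab8d-2, atm-2 rab8d-2, WT and nac085-1 rab8d-2 followed without a break between neighbours. CYCA2;3 had its only break between WT and atm-2 rab8d-2, and CYCA2;2 had its only break between WT at the top and nac085-1 rab8d-2 (adjusted p = 0.0036). CYCA2;1 had none.

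Summed per transcript length, A2 cyclin RNA was highest in rab8d-2 and lowest in atm-2 rab8d-2 and nac085-1 rab8d-2, whose libraries overlapped. WT libraries held 35.6, 33.8 and 36.4 TPM of the 4 cyclins, rab8d-2 libraries 43.5, 41.0 and 43.5, and atm-2 rab8d-2 libraries 28.9, 28.8 and 28.9. The sums were 31.8 to 32.7 TPM in sog1-1 rab8d-2, 35.9 to 37.9 among the libraries labelled nac044-1 rab8d-2 and 28.7 to 31.0 in nac085-1 rab8d-2. The rab8d-2 libraries lay above all others, and the atm-2, nac085-1 and sog1-1 double mutants lay below WT.

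The make-up of the family also shifted. CYCA2;2 contributed 27.1% ± 1.13 (SD, n = 3) of A2 cyclin TPM in WT and 16.4% ± 1.08 in rab8d-2, and CYCA2;4 35.4% ± 1.34 and 46.0% ± 0.709. In nac085-1 rab8d-2 the share of CYCA2;2 was 27.0% ± 3.28, with libraries on both sides of the WT range, and that of CYCA2;4 was 38.9% ± 2.36. CYCA2;3 contributed most in sog1-1 rab8d-2, at 38.4% ± 2.00, against 31.6% ± 1.87 in WT. CYCA2;1 contributed between 3.96% and 5.97% on average in every genotype.

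The summed level of the 3 CCS52 genes was 45.8 to 49.9 TPM in WT, 49.7 to 50.8 in rab8d-2 and, for atm-2 rab8d-2, 49.3 to 51.2. Sums of 42.1 to 44.1 TPM in sog1-1 rab8d-2 and 42.1 to 45.3 among the libraries labelled nac044-1 rab8d-2 lay below every WT library, and those of nac085-1 rab8d-2, at 52.5 to 53.3, lay above. CCS52B contributed 52.0% ± 1.00 of CCS52 TPM in WT, 49.2% ± 0.483 in rab8d-2, 34.4% ± 0.999 in atm-2 rab8d-2, 41.9% ± 2.69 in sog1-1 rab8d-2 and 40.4% ± 0.827 in nac085-1 rab8d-2. Among the libraries labelled nac044-1 rab8d-2 its share was 49.4% ± 1.31, overlapping rab8d-2.

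The ratio of CCS52A1 plus CCS52A2 to the 4 A2 cyclins was highest in atm-2 rab8d-2 and nac085-1 rab8d-2. It was 0.688, 0.650 and 0.620 in WT, 0.6, 0.615 and 0.578 in rab8d-2, and 0.573, 0.6 and 0.610 among the libraries labelled nac044-1 rab8d-2. It was 1.16, 1.15 and 1.12 in atm-2 rab8d-2 and 1.09, 1.02 and 1.03 in nac085-1 rab8d-2, above all other libraries. The sog1-1 rab8d-2 libraries lay between, at 0.841, 0.728 and 0.785, while rab8d-2 and the libraries labelled nac044-1 rab8d-2 overlapped just below WT. These are ratios of RNA levels with no test, and in bulk roots fewer cells of a type and less RNA per cell cannot be told apart.

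**Figure D3:**
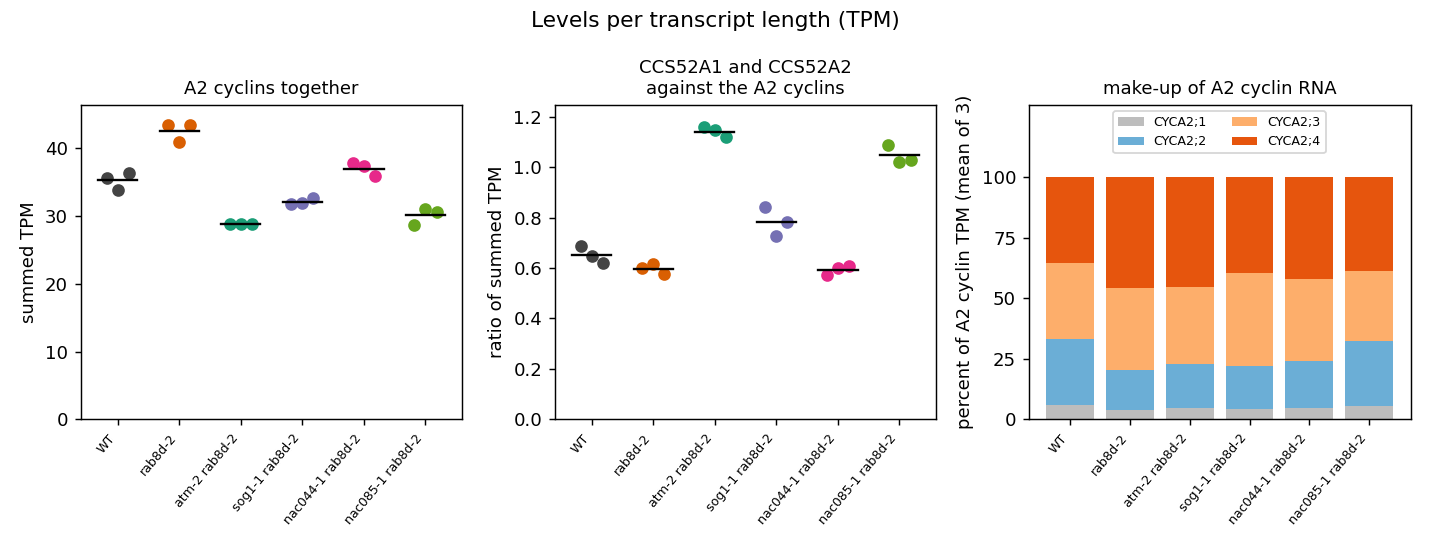
Levels per transcript length in each library: summed TPM of the 4 A2 cyclins, the ratio of CCS52A1 plus CCS52A2 to that sum, and the mean percentage each cyclin contributed. The ratio was 1.02 or more in all atm-2 rab8d-2 and nac085-1 rab8d-2 libraries and 0.841 or less in the other 12.

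Across the 18 libraries, which share 6 genotypes and so do not give 18 independent points, the members fell into loosely parallel sets. Pearson correlations of log2 CPM were 0.69 between CCS52A1 and CCS52A2, 0.75 between CYCA2;3 and CYCA2;4, and 0.78 between CCS52B and CYCA2;2. For the low-count CYCA2;1 they were 0.74 with CCS52B and 0.61 with CYCA2;2. CCS52A2 and CYCA2;3 ran in opposite directions (r = -0.76), and CYCA2;2 and CYCA2;4 showed little relation (r = -0.16). Among all tested genes, the pattern most like CCS52A1 was that of SAPX, a stromal ascorbate peroxidase (r = 0.967), followed by AT3G25640 (0.957) and UGT72E2 (0.956). For CCS52A2 these were AHL19 (r = 0.981), IDD14 (0.980) and AT1G53035 (0.980), and for CCS52B they were TBL4 (r = 0.938), BT2 (0.937) and ACHT5 (0.934).

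For the cyclins the likest patterns were those of PEL3 (r = 0.840), AT5G61190 (0.801) and AT3G45740 (0.799) for CYCA2;1, and of AT1G51830 (r = 0.937), AT1G04030 (0.928) and ACR9 (0.919) for CYCA2;2. For CYCA2;3 they were UGE1 (r = 0.953), AT2G18630 (0.952) and AT5G41740 (0.948). For CYCA2;4 they were TRIP-1, a subunit of translation initiation factor eIF3 (r = 0.947), AT2G28450 (0.945) and AKR4C10 (0.943). No member was among the 3 nearest genes of another member.

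The surrounding pathway was read from 9 lists with 59 genes, of which 55 were tested. In rab8d-2 against WT 24 of the 55 were higher and 6 lower, or 54.5% called, with a median log2 fold change of 0.14. Against rab8d-2 the counts were 7 higher and 25 lower in atm-2 rab8d-2 (58.2%, median -0.14), 3 and 25 in sog1-1 rab8d-2 (50.9%, -0.16), and 10 and 27 in nac085-1 rab8d-2 (67.3%, -0.17). For the libraries labelled nac044-1 rab8d-2 they were 3 and 19 (40.0%, -0.10). These comparisons all share the rab8d-2 libraries. Against WT the medians were 0.08 in atm-2, -0.05 in sog1-1, 0.03 in nac044-1 and 0.00 in nac085-1 rab8d-2. In the comparisons counted here, the share called was near the background of each given above. More of the called genes were higher than lower in rab8d-2 against WT, and more were lower than higher in each double mutant against rab8d-2.

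APC/C subunits, the enzyme that CCS52 proteins activate, followed this direction: of 12 tested, 7 were higher and 0 lower in rab8d-2 against WT (median 0.23), where 31.7% of all genes were higher and 32.9% lower. Against rab8d-2, 0 were higher in any double mutant and 6, 7, 3 and 6 were lower in atm-2, sog1-1, nac044-1 and nac085-1 rab8d-2, where 29.9%, 26.0%, 18.6% and 31.7% of all genes were lower. APC1, the large scaffold subunit, went from 28.3 CPM in WT to 39.2 in rab8d-2 (0.47 ± 0.05, adjusted p = 2.07e-12). It was lower than rab8d-2 by 0.45 ± 0.05 in atm-2 rab8d-2 (adjusted p = 4.66e-12) and by 0.53 ± 0.05 in sog1-1 rab8d-2 (adjusted p = 1.36e-13).

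The other class of APC/C activators, the CDC20 proteins of mitosis, had 2 tested genes of 5 listed, and both were higher in rab8d-2 than in WT. Of all genes, 31.7% were higher in that comparison. CDC20.1 rose by 0.48 ± 0.04 (adjusted p = 1.36e-13) and was lower than rab8d-2 in all 4 double mutants, by 0.36 to 0.59. CDC20.1 and CDC20.2 are near-identical copies, so the division of reads between them is uncertain. Of the 3 listed APC/C regulators, OSD1, an inhibitor of the complex, was lower in rab8d-2 than in WT (-0.20 ± 0.06, adjusted p = 0.0041). It was lower again in every double mutant (-0.51, -0.24, -0.56 and -0.70 against rab8d-2 in atm-2, sog1-1, nac044-1 and nac085-1, each called). SAMBA, a regulator of A2 cyclin stability, fell in sog1-1 rab8d-2 (-0.59 ± 0.09, adjusted p = 1.98e-07), and UVI4, the relative of OSD1, fell in nac085-1 rab8d-2 (-0.44 ± 0.15, adjusted p = 0.00791).

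Among the 5 tested A-type cyclins outside the A2 group, 2 rose and 1 fell from WT to rab8d-2, where 31.7% of all genes were higher and 32.9% lower. CYCA1;2, the cyclin also known as TAM for its role in meiosis, was higher by 0.74 ± 0.16 (adjusted p = 7.97e-05) and lower than rab8d-2 by 1.74 ± 0.19 in atm-2 rab8d-2 (adjusted p = 2.19e-11) and by 1.69 ± 0.18 in nac085-1 rab8d-2 (adjusted p = 4.51e-11). CYCA3;2 rose by 0.25 ± 0.05 in rab8d-2 (adjusted p = 4.2e-05) and was lower in all 4 double mutants, by 0.25 to 0.33. Of the 3 partner CDKs, CDKA;1 was slightly higher in rab8d-2 than in WT (0.09 ± 0.04, adjusted p = 0.0362) and lower than rab8d-2 in atm-2 (-0.27 ± 0.04), sog1-1 (-0.17 ± 0.04) and nac085-1 rab8d-2 (-0.31 ± 0.04), each called. CDKB1;2 fell in the libraries labelled nac044-1 rab8d-2 (-0.39 ± 0.09, adjusted p = 0.000615) and in nac085-1 rab8d-2 (-0.26 ± 0.09, adjusted p = 0.012).

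The known transcriptional regulators of CCS52 and CYCA2 genes did not move in a common direction, with 4 of 13 higher and 3 lower in rab8d-2 against WT. Of all genes, 31.7% were higher and 32.9% lower there. Against rab8d-2 the counts were 3 higher and 6 lower in atm-2, 1 and 2 in sog1-1, 2 and 2 in nac044-1, and 5 and 3 in nac085-1 rab8d-2. The shares of all genes higher and lower were 31.7% and 29.9%, 28.7% and 26.0%, 24.3% and 18.6%, and 31.8% and 31.7% in the same order. MYB88 and FLP, repressors of CYCA2;3 and CDKB1 genes in the stomatal lineage, were lower in rab8d-2. MYB88 went from 85.2 CPM in WT to 41.7 (-1.03 ± 0.04, adjusted p = 3.94e-27) and FLP from 17.6 to 12.2 (-0.53 ± 0.07, adjusted p = 4.34e-09). MYB88 was higher than rab8d-2 in nac085-1 rab8d-2 (0.45 ± 0.04) and in the libraries labelled nac044-1 rab8d-2 (0.73 ± 0.04) and lower in atm-2 rab8d-2 (-0.15 ± 0.04), each called.

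GTL1, a trihelix repressor of CCS52A1 in trichomes, stood at 63.9 CPM in WT and 49.8 in rab8d-2 (-0.36 ± 0.04, adjusted p = 1.93e-10). It was higher than rab8d-2 in atm-2 rab8d-2, at 77.7 CPM (0.64 ± 0.04, adjusted p = 3.46e-19), and in nac085-1 rab8d-2, at 72.2 (0.53 ± 0.04, adjusted p = 3.67e-16), the groups in which CCS52A1 was also highest. E2FA, an activator of S-phase genes, fell in sog1-1 rab8d-2 (-0.29 ± 0.10, adjusted p = 0.0132), in nac085-1 rab8d-2 (-0.35 ± 0.10, adjusted p = 0.00225) and in the libraries labelled nac044-1 rab8d-2 (-0.55 ± 0.10, adjusted p = 2.11e-05). DEL1, the E2F-related repressor of CCS52A2, was not called in any of these 5 comparisons. In rab8d-2 against WT it stood at 8.04 and 7.69 CPM (0.06 ± 0.09, adjusted p = 0.571), and that gene was named after its values had been seen.

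**Figure D4:**
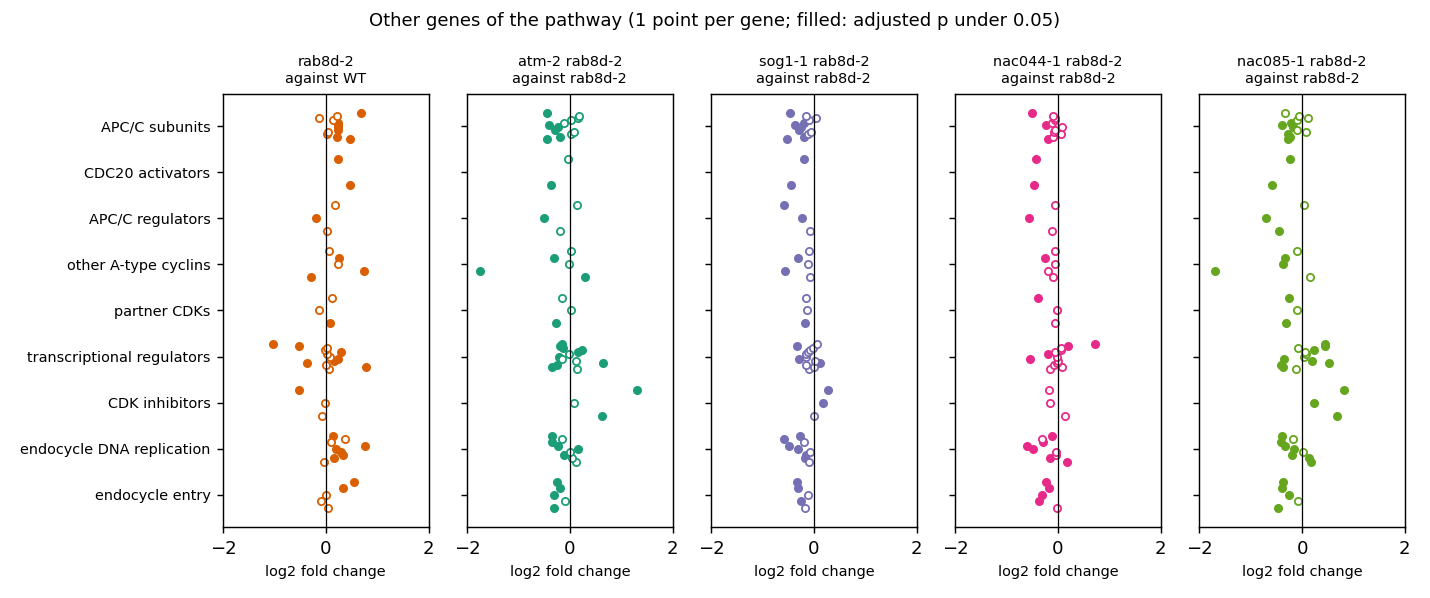
Log2 fold changes of the 55 tested genes of the 9 pathway lists, 1 point per gene, for rab8d-2 set against WT and for each double mutant set against rab8d-2, with filled points for adjusted p under 0.05. Of the APC/C subunits 7 of 12 were higher in rab8d-2 than in WT and none was higher in a double mutant than in rab8d-2.

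Among the CDK inhibitors tied to endoreduplication, SIM, SMR1 and KRP2, 2 were higher than rab8d-2 in atm-2 rab8d-2, 2 in sog1-1 rab8d-2 and 3 in nac085-1 rab8d-2, and 0 were lower in any double mutant. Of all genes, 61.6%, 54.6% and 63.5% were called in these 3 comparisons, 31.7%, 28.7% and 31.8% of all genes as higher and 29.9%, 26.0% and 31.7% as lower. KRP2 was lower in rab8d-2 than in WT (-0.52 ± 0.07, adjusted p = 2.7e-08). Against rab8d-2 it rose by 1.31 ± 0.06 in atm-2 rab8d-2 (adjusted p = 6.14e-23), by 0.82 ± 0.07 in nac085-1 rab8d-2 (adjusted p = 1.95e-14) and by 0.27 ± 0.08 in sog1-1 rab8d-2 (adjusted p = 0.00221). SIM, which inhibits mitotic CDKs in trichomes, rose by 0.63 ± 0.06 in atm-2 rab8d-2 (adjusted p = 4.32e-14) and by 0.68 ± 0.06 in nac085-1 rab8d-2 (adjusted p = 4.23e-15). SMR1 rose in sog1-1 rab8d-2 (0.18 ± 0.07, adjusted p = 0.0151) and nac085-1 rab8d-2 (0.23 ± 0.06, adjusted p = 0.00166). In the libraries labelled nac044-1 rab8d-2, 0 of the 3 were called, where 42.9% of all genes were called, 24.3% higher and 18.6% lower.

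Genes for DNA replication in the endocycle were higher in rab8d-2 than in WT in 6 of 9 cases and lower in 0. Of all genes, 31.7% were higher and 32.9% lower there. The number called in either direction was near the 64.5% of all genes called. CDT1B, a replication licensing factor, rose by 0.76 ± 0.11 (adjusted p = 5.96e-08), and TOP6B, a subunit of the topoisomerase VI required for high ploidy, by 0.34 ± 0.06 (adjusted p = 8.53e-07). Against rab8d-2, 4, 6, 5 and 5 of the 9 were lower and 1, 0, 1 and 2 higher in atm-2, sog1-1, nac044-1 and nac085-1 rab8d-2. Of all genes, 29.9%, 26.0%, 18.6% and 31.7% were lower and 31.7%, 28.7%, 24.3% and 31.8% higher in the same order. FBL17, an F-box protein that targets KRP inhibitors, fell by 0.35 ± 0.04 in atm-2 rab8d-2 (adjusted p = 3.09e-11), by 0.27 ± 0.04 in sog1-1 rab8d-2 (adjusted p = 4.7e-08) and by 0.39 ± 0.04 in nac085-1 rab8d-2 (adjusted p = 1.68e-12). The fall was 0.12 ± 0.04 for the libraries labelled nac044-1 rab8d-2 (adjusted p = 0.0091).

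Of the 5 genes that hold back or time endocycle entry, 2 were higher in rab8d-2 than in WT and 0 lower, where 31.7% of all genes were higher and 64.5% were called. CYCD3;3, a D-type cyclin of dividing cells, rose by 0.33 ± 0.05 (adjusted p = 8.89e-07), and CYCD5;1, linked to natural variation in endoreduplication, by 0.54 ± 0.10 (adjusted p = 1.03e-05). Against rab8d-2, 4, 3, 4 and 4 were lower in atm-2, sog1-1, nac044-1 and nac085-1 rab8d-2 (29.9%, 26.0%, 18.6% and 31.7% of all genes were lower), and 0 were higher. HPY2, a SUMO ligase that represses endocycle onset, fell in nac085-1 rab8d-2 (-0.46 ± 0.12, adjusted p = 0.000776) and in atm-2 rab8d-2 (-0.30 ± 0.12, adjusted p = 0.0231).

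Markers of root tissues moved with these genotypes, and none of the 28 marker genes was at 0 in any group. The meristem list was higher in rab8d-2 than in WT in 6 of 7 genes (31.7% of all genes were higher), with summed levels of 105 to 111 CPM in WT and 157 to 164 in rab8d-2, the comparison in which CYCA2;3 and CYCA2;4 rose. Its sum was 164 to 170 CPM in atm-2 rab8d-2 and 154 to 158 in nac085-1 rab8d-2, where both cyclins were lower, and 133 to 141 in sog1-1 rab8d-2 and 137 to 142 among the libraries labelled nac044-1 rab8d-2. The genes of the list did not move together. PLT3, a root meristem regulator and the most abundant of them in rab8d-2, went from 30.4 CPM in WT to 63.7 in rab8d-2 and was lower than rab8d-2 in all 4 double mutants, at 49.6 in atm-2, 39.4 in sog1-1, 47.4 in nac044-1 and 40.5 in nac085-1 rab8d-2. WOX5, a marker of the quiescent centre, stood at 1.20 CPM in WT, 5.02 in rab8d-2, 16.0 in atm-2 rab8d-2 and 16.8 in nac085-1 rab8d-2. Both genes were named after their values had been seen.

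Markers of differentiated cells ran the other way between WT and rab8d-2. Root hair genes were lower in 6 of 7 cases (353 to 378 CPM in WT, 230 to 250 in rab8d-2), endodermis genes in 7 of 7 (540 to 565 and 366 to 370) and xylem genes in 6 of 7 (478 to 493 and 259 to 262), where 32.9% of all genes were lower. Summed levels in the atm-2, sog1-1, nac085-1 and nac044-1 double mutants were 303 to 351, 344 to 380, 313 to 364 and 235 to 260 CPM for root hair. For endodermis they were 505 to 535, 559 to 570, 501 to 522 and 397 to 414, and for xylem 332 to 337, 448 to 474, 522 to 534 and 421 to 427. CCS52A1 was highest in atm-2 and nac085-1 rab8d-2, where root hair and endodermis sums were above rab8d-2. Both sums were also above rab8d-2 in sog1-1 rab8d-2 and in WT. Mean CCS52A1 was 22.4 CPM in WT and 22.8 in rab8d-2, a difference that did not pass the test. The group with the nac044-1 label had the lowest CCS52A1, at a mean of 18.7 CPM. Its endodermis sums were above rab8d-2 and its root hair sums overlapped rab8d-2. The part of the mix of cell types in the members' results was not tested.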

How the data were processed

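Poly(A) RNA of whole roots was sequenced in 18 libraries, per the labels' protocols. The authors deposited estimated counts from RSEM 1.3.1, with TPM and FPKM per gene in the same files, per the submitters' processing notes and the file headers. The genome build and whether counting used strand are not given in the sources used here. Gene lengths implied by the deposited FPKM values were checked for single-transcript genes with FPKM over 20 and more than 200 counts. After a constant per library, 99.2% to 99.6% of these were within 2 bases of RefSeq TAIR10.1 transcript lengths, and TAIR10.1 coordinates were used. Deposited estimated counts were rounded to whole numbers (1.56% to 1.75% of values were not whole; all member counts were). Estimated counts of 19981 genes that passed filterByExpr were fitted over all 18 libraries with edgeR 4.0.16 (R 4.3.3, limma 3.58.1): TMM scaling, quasi-likelihood F test, Benjamini-Hochberg adjustment and a threshold of 0.05. Standard errors are the absolute log2 fold change divided by the square root of F. TPM was summed over members without a test. The code was tested on simulated data.

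Totals were 20103634 to 20471203 per library, and replicates differed by 1.33 to 2.16 times the counting variance. The text names all 7 members, the mutated genes, at most 3 called genes per list and comparison by smallest p, and the 3 genes most correlated with each member (log2 CPM, prior count 2); members and lists were chosen with earlier results of these data known. Alternatives were DESeq2 1.42.0, other scalings and filters, fits of the compared groups alone, a replicate block, each library left out and, added after seeing the data, a fit without the libraries labelled nac044-1 rab8d-2.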

Additional observations from a re-analysis of the deposited data

How the results depend on the processing

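Of 1561 alternative values of the members' log2 fold changes, 1532 kept their side of the threshold, 17 were no longer called and 12 became called. Of those called in the main or the alternative fit, 0 reversed direction. Changes of direction among values called in neither fit were not counted. In sog1-1 rab8d-2 against rab8d-2 the number of members called was 2, and it was 4 with upper quartile scaling and 2 to 4 with each library left out. In sog1-1 rab8d-2 against WT it was 5, and it was 3 with DESeq2, all lower, and 3 to 5 with each library left out; the cause was not tested. With each library left out the number was 4 to 4 in rab8d-2 against WT, and against rab8d-2 it was 6 to 6 in atm-2, 3 to 4 in nac044-1 and 5 to 6 in nac085-1 rab8d-2. Leaving out the libraries labelled nac044-1 rab8d-2, chosen after seeing the data, changed none of the other groups' counts of called members. The replicate numbers did not pair the samples: same-numbered libraries correlated between -0.06 and 0.09 over 27 pairs, and 6 of 18 libraries correlated best with their own number. With the replicate block 12892 genes were called in rab8d-2 against WT, against 12893 without it, and the counts of members called were the same in all 9 comparisons. Scaling moved the median of all genes by at most 0.07. Depth limits CYCA2;1 most, with 21 to 52 counts per library.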
